A study of Oryza sativa with 60 samples.

Results

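Of the 9126 candidate pseudouridine (Ψ) sites listed for rice (Oryza sativa, cultivar Nipponbare), 780 lay between a T and a G, and 682 of these were within the span of exactly 1 gene with an Os identifier on the same chromosome and strand. These 682 TTG sites were 8.39% of the 8124 sites placed in a gene in this way, and they are the subject of the report. Of the other 98, 85 lay in no gene on their strand, 1 lay in more than 1 gene and 12 lay in a gene with another kind of identifier. Members were chosen from the authors' list by sequence and by gene span, not by how strongly they were modified. Of the 682 sites, 667 had passed the authors' p-value-based filter in at least 1 tissue, so the list itself was not free of such a choice. The 682 sites fell in 636 genes on 12 chromosomes, with 339 sites on the plus strand and 343 on the minus strand. A single TTG site was found in 599 genes, 2 in 32 genes, 3 in 3 genes and 5 in each of 2 genes.

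BID-seq was applied to 12 tissues. Plumule (the shoot of the germinating embryo) and radicle (its root) came from the dark and from the light, and seedlings were taken at 8 days and at 2 weeks. Panicle, straw and flag leaf were sampled at heading. Flag leaf was sampled again, with endosperm and embryo, at 10 days after anthesis (DAA). All plants were of the same cultivar, and RNA was enriched for poly(A)+ transcripts in every group. Each tissue had 2 untreated input libraries and 3 bisulfite-treated libraries, 60 samples in all. The Ψ fraction, the percent of transcripts modified at a site, was a single number for each site in each tissue, since the authors had pooled the replicates. The fraction therefore has no replicate error, the depth behind it is unknown, and differences in fraction between tissues are given as values with no test. A value was listed in all 12 tissues for 615 of the 682 sites. Gene expression was given in TPM, which scales reads by gene length and by library depth, for 2 libraries per tissue.

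Ψ is made from uridine within the RNA chain by Ψ synthases, and it has long been known in rRNA and tRNA, where small nucleolar RNAs or stand-alone enzymes choose the uridine. In BID-seq, bisulfite forms an adduct with Ψ and reverse transcriptase skips the base, so that Ψ is read as a gap. In mRNA of human and mouse, a run of uridines that ends before a G is known as a strongly modified setting. Every TTG site is by its rule the last T of a run of at least 2, and a gap within such a run cannot be placed on one of its bases by alignment.

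The letters that surround the sites are shown first because the fractions below differ by them. Each window has 7 letters, written as DNA from 5′ to 3′ on the transcript strand, with the site at letter 4, and the capitals mark the T before the site, the site itself and the G after it. The commonest windows, down to the 3 that tie at 14 sites, and the windows of the 4 sites that passed the authors' filter in every tissue with a flag were as follows.
window of 79 sites: ggTTGta
window of 38 sites: ggTTGtg
window of 22 sites: ggTTGca
window of 19 sites: gcTTGca
window of 14 sites: ccTTGca
window of 14 sites: gcTTGcc
window of 14 sites: ggTTGct
Os09g0464000: caTTGat
Os12g0567700: ggTTGct
Os06g0633800: ccTTGcc
Os08g0430500: gcTTGca
The 2 commonest windows differ only in letter 7. Their median site means, taken as the median of each site's mean fraction over tissues, were 18.1% and 11.8%. The 3 windows with 14 sites had medians of 18.9% (ccTTGca), 6.70% (gcTTGcc) and 25.0% (ggTTGct).

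The expression libraries held 2109737 to 9006629 read equivalents, estimated from the steps in TPM times gene length, and 50.1% to 70.3% of values above 0 were then within 0.05 of a whole number. Tissue labels were checked against 9 identifiers chosen as markers, whose names the files do not give. The summed level of the 3 endosperm markers was 19913 and 20910 TPM in the endosperm libraries and 3571 and 3624 TPM in the embryo libraries. It was 14974 TPM in radicle in the light replicate 1 and 5.55 TPM in replicate 2, whereas it lay between 5.55 and 88.1 TPM in the 19 libraries left when endosperm, embryo and that replicate 1 are set aside. The 2 root markers summed to 266 TPM in that library and to 507 TPM in replicate 2. The 2 green leaf markers summed to 518 TPM there and to 23.6 TPM in replicate 2. Their sum was 3520 to 10324 TPM in the flag leaf and seedling libraries and at most 1762 TPM in the others, with 1096 and 1056 TPM in endosperm. The panicle marker stood at 525 and 546 TPM in panicle and at most at 24.5 TPM elsewhere. The 2 replicates of radicle in the light had a Pearson's r of 0.914 across genes, against 0.986 to 0.994 in the other 11 tissues. The fractions of radicle in the light were pooled over libraries whose make-up was not analysed here, and the part of endosperm RNA in them was not tested. The 2 libraries of plumule in the dark, and likewise those of plumule in the light, did not differ beyond the sampling noise (a chi-square of 1.01 and 0.996 per gene, where counting noise alone gives about 1, against 1.02 to 12.4 in the other 10 tissues), and each pair was counted as 1 sample in an alternative fit.

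The TTG sites carried Ψ at moderate fractions with a long upper tail. The median of the site means was 13.7% (13.9% without radicle in the light), the middle 50% of sites lay between 9.38% and 19.2%, and the highest site mean was 93.4%. A mean of at least 20% was reached by 155 sites (22.7%, 95% Wilson interval 19.7% to 26.02%), and a mean of at least 50% by 15. Of these 15, 6 passed the authors' filter in 5 or more tissues, and the site with the highest mean passed in 1 tissue only. Among the 16 combinations of the letters on both sides of the site, TTG was 6th in number and 3rd by the median of site means. TTC sites had the highest median at 19.0% over 736 sites and CTC sites followed at 16.6% over 1204. CTG, which shares the G, stood at 13.2% over 296 sites, and GTG stood at 7.64% over 1153. Over the 7442 sites of all other motifs the median was 10.1%, and 20.2% of them (19.3% to 21.1%) had a mean of at least 20%. All these intervals cover the choice of sites only.

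The median TTG fraction differed little from tissue to tissue. It was lowest in the 2-week seedling at 11.1% and highest in radicle in the dark at 14.1%, with endosperm at 13.9% next below it and flag leaf at 10 DAA at 11.4% next above the lowest. In each of the 12 tissues it was above the median of all other motifs, which ranged from 7.61% in the 2-week seedling to 10.5% in radicle in the dark. The share of TTG sites at a fraction of 20% or more was 33.2% in radicle in the dark, 31.6% in endosperm and 30.1% in embryo. The other 9 tissues lay between 23.3% in the 2-week seedling and 27.7% in panicle. Some sites passed the authors' filter in 1 tissue alone, and their median fraction was higher there than elsewhere. A choice by a pass in that tissue itself favours high values there. Of all 372 such sites, 211 had an equal or higher listed fraction in another tissue, among them 42 of the 47 for the 2-week seedling. For radicle in the dark these were 56 sites, with medians of 21.6% there and 7.80% elsewhere. For embryo they were 69, at 20.2% and 9.97%, for endosperm 15, at 27.2% and 5.21%, and for the 2-week seedling 47, at 21.1% and 12.8%. The part of such sites in the medians and shares was not tested. The share listed at exactly 0 was 8.16% in panicle and 17.5% in radicle in the light, the lowest and the highest, whereas among all other motifs it was between 17.9% and 25.7%.

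**Figure D1:**
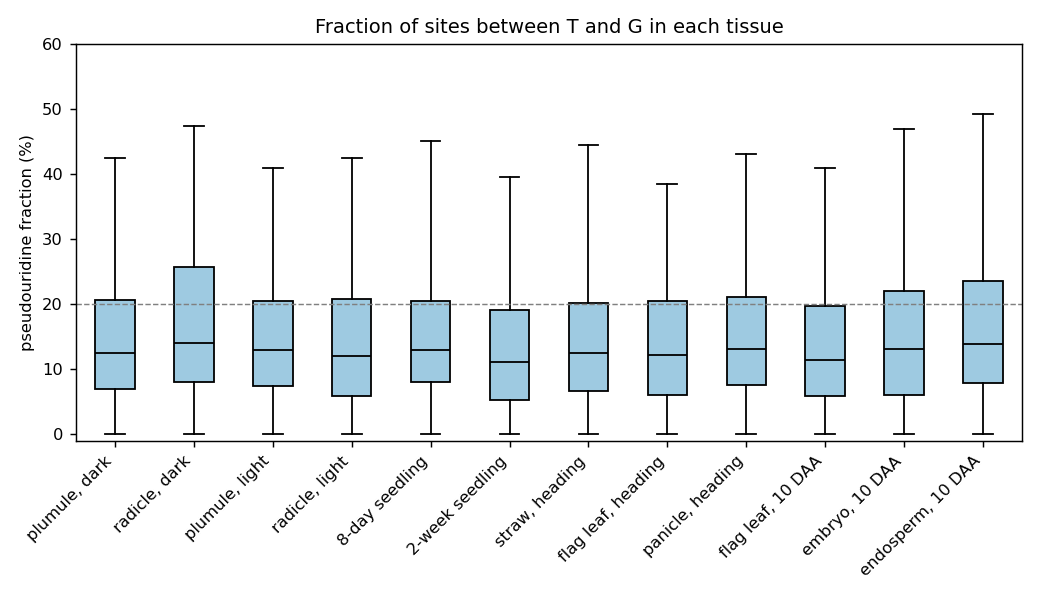
Ψ fraction in percent of the TTG sites in each of 12 tissues; boxes show the middle 50% of sites with the median as a line, whiskers the 5th and 95th percentiles over sites, and the dashed line 20%. Medians lie between 11.1% and 14.1%, and the boxes of all tissues overlap.

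A site passed in a tissue when it met the authors' p-value-based filter, and 11 tissues had such a flag (plumule in the dark had none). Of the 682 sites, 372 (54.5%) passed in 1 tissue only and 84 (12.3%) in 5 or more. All 11 were passed by 4 (0.587%) and none by 15 (2.20%). Among all other motifs these shares were 59.0%, 9.06%, 0.578% and 3.05%. The number of TTG sites passed was 189 in radicle in the dark, 183 in embryo and 175 in the 2-week seedling, and it was lowest in endosperm at 67. These were 27.7%, 26.8%, 25.7% and 9.82% of TTG sites, against 27.8%, 19.7%, 18.4% and 11.9% of all other motifs. The median of site means was 12.1% for TTG sites passed in 1 tissue and 21.0% for the 84 passed in 5 or more. All other motifs also rose, with medians of 8.54% at 1 pass, 13.7% at 5 and 22.5% at 11. Filter and fraction come from the same libraries, so the 2 are not independent. Without radicle in the light, 11.3% instead of 12.3% of the TTG sites passed in 5 or more.

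The 4 sites that passed in all 11 flagged tissues had a fraction above 13% in each of the 12 tissues. The highest, in Os09g0464000 (chromosome 9, position 17568100, minus strand, IRGSP-1.0), was at 67.1% in plumule in the dark, 86.0% in radicle in the dark, 66.1% in plumule in the light and 64.4% in radicle in the light. It was at 73.4% and 76.7% in the 8-day and 2-week seedling, and at 67.9%, 76.4% and 74.6% in flag leaf, straw and panicle at heading. At 10 DAA it was at 77.5% in flag leaf, 79.9% in embryo and 73.0% in endosperm. Over the same tissues the level of its gene ran from 15.0 to 233 TPM, and its fraction had a range of 21.7 points. The site in Os12g0567700 (chromosome 12, position 23351325, plus strand) had a lowest, median and highest fraction of 27.9%, 31.9% and 37.7% in a gene at 415 to 1234 TPM. That in Os06g0633800 (chromosome 6, position 25691468, plus strand) had 19.3%, 31.4% and 36.1%, lowest in straw and highest in embryo. That in Os08g0430500 (chromosome 8, position 20813652, minus strand) had 13.1%, 21.8% and 25.1%, lowest in radicle in the light and highest in plumule in the dark. Without radicle in the light, its lowest value was 18.0% in flag leaf at 10 DAA.

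Among the 84 sites passed in 5 or more tissues, the next highest means lay between 56.3% and 69.4%. The site in Os05g0463100 (chromosome 5, position 22750736, window atTTGtg) had a mean of 69.4%, with 95.4% in flag leaf at 10 DAA, 91.3% in embryo and a listed 0 in endosperm, where its gene stood at 2.75 TPM. A site in Os06g0648200 (chromosome 6, position 26493446), with the same window as the site in Os09g0464000, had a mean of 62.4% and ran from 25.1% in plumule in the dark to 84.7% in radicle in the dark. The sites in Os04g0541100 (chromosome 4, position 27079860, window cgTTGca) and Os11g0659500 (chromosome 11, position 26472246, window tcTTGcg) had means of 59.0% and 56.3%, with ranges over tissues of 49.3% to 68.7% and 46.4% to 67.7%. These 2 sites therefore varied less than the pair before them. The site in Os04g0541100 stood at 60.2% in flag leaf at both ages, where its gene was at 2.04 and 1.03 TPM. It did not pass in flag leaf at either age.

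**Figure D2:**
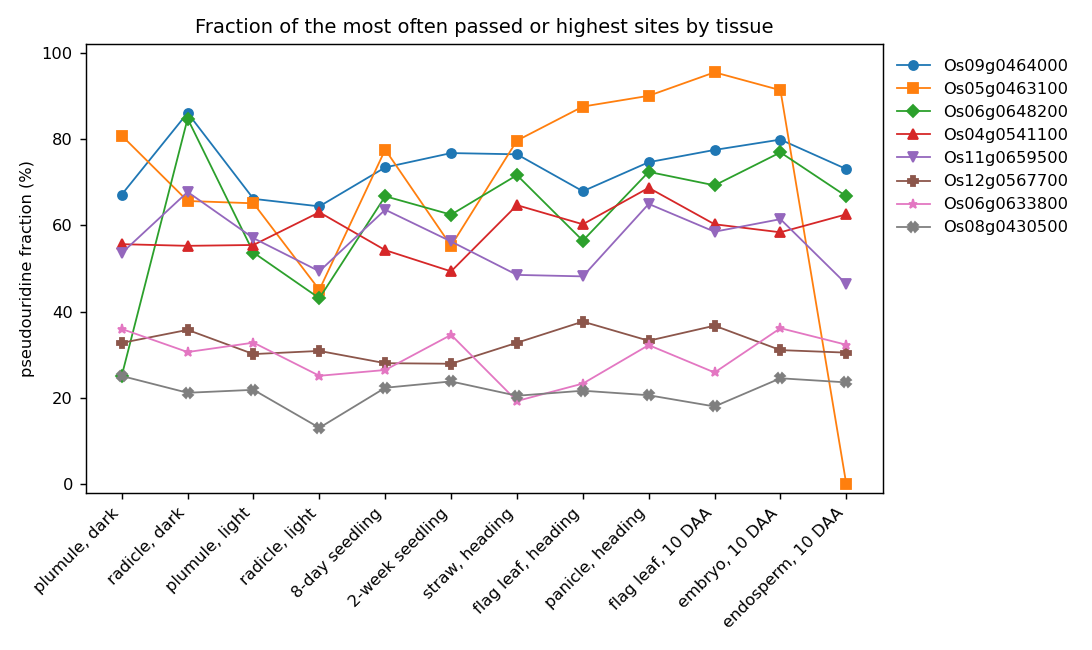
Ψ fraction in percent across the 12 tissues for the 4 TTG sites that passed in every flagged tissue and the 5 highest means among sites passed in at least 5 tissues (8 sites, since 1 is in both groups); each line is 1 site named by its gene, and lines join tissues for reading only. The site in Os09g0464000 stays between 64.4% and 86.0%, whereas that in Os05g0463100 runs from 0 in endosperm to 95.4%.

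Of the 5 sites with the largest ranges among the 84, 4 were listed at 0 in at least 1 tissue. The site in Os05g0463100 had the largest, 95.4 points. In Os11g0687100 (chromosome 11, position 27835140, window cgTTGcc) the fraction was 83.1% in endosperm and 78.5% in panicle and was listed at 0 in both radicles and in embryo, where the gene stood at 0.279 to 1.24 TPM. In Os06g0647500 (chromosome 6, position 26469037, window aaTTGga) it was 83.0% in embryo and was listed at 0 in both radicles, in plumule in the dark and in the 8-day seedling, where the gene stood at 5.14 to 13.1 TPM. The site in Os06g0648200 described above had the smallest of these 5 ranges, 59.6 points, and is the one of these 5 that was above 0 in all 12 tissues. In Os04g0684500 (chromosome 4, position 34969925, window caTTGag) it was 60.6% in flag leaf at heading and 0 in both radicles and in embryo, at gene levels of 0.545 to 1.24 TPM. The 3 lowest means among the 84 were in highly expressed genes. They were 2.60% in Os07g0529800 (chromosome 7, position 20734115, window gcTTGcc; 533 to 2816 TPM), 3.44% in Os05g0135700 (chromosome 5, position 2091381, window ccTTGct; 640 to 3291 TPM) and 5.52% in Os04g0656100 (chromosome 4, position 33462360, window gcTTGct; 144 to 836 TPM). All 3 have a C at letter 2. Sites in weaker genes passed only at higher fractions, as given below. The part of this choice of sites in the high levels of these 3 genes was not tested.

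For each flagged tissue, the site that passed there alone with the highest fraction was also measured elsewhere, and a pass in 1 tissue did not mean Ψ in 1 tissue. Of the 372 sites that passed in 1 tissue, 211 had an equal or higher listed fraction in another tissue, and 5 were under 5% in all the others. The clearest of the named sites for a single tissue was in Os07g0613300 (chromosome 7, position 25246933, window acTTGtc), at 32.5% in straw, 12.3% in endosperm, 5.22% in embryo and 0 in the other 9 tissues. Its gene stood at 4.87 to 17.1 TPM throughout, and the part of read depth in the listed values of 0 was not tested. The site in Os05g0397900 (chromosome 5, position 19362667, window tgTTGct) was at 59.3% in radicle in the dark and at most 28.5% elsewhere. The site in Os04g0218100 (chromosome 4, position 7894494, window ctTTGtt) was at 69.3% in endosperm and at 41.9% in plumule in the dark, and was listed at 0 in 5 tissues. The site in Os03g0250000 (chromosome 3, position 7916128, window atTTGtc) was at 47.7% in the 8-day seedling and 29.0% in plumule in the light, and between 0 and 18.6% in the other tissues with a value.

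Other sites with a single pass were high in many tissues. The site in Os11g0620100 (chromosome 11, position 24172410, minus strand, window caTTGac) passed in flag leaf at heading alone, yet had the highest mean of all members at 93.4%, with a lowest, median and highest fraction of 73.4%, 94.6% and 100% in a gene at 47.3 to 345 TPM. The site in Os04g0281900 (chromosome 4, position 12027515, window ggTTGct) passed in the 2-week seedling at 87.5%, was between 78.8% and 100% in 8 other tissues and was listed at 0 in flag leaf at 10 DAA. The site in Os03g0793700 (chromosome 3, position 33020614, window ggTTGat) had values in 3 tissues only, 70.1% in embryo, 83.4% in endosperm and 100% in panicle, and its gene ran from 0.129 to 11357 TPM. The site in Os07g0523150 (chromosome 7, position 20261897, window tcTTGtg) was either at 76.7% or more (5 tissues) or at 0 (6 tissues), in a gene at 32.9 TPM or more in every tissue. The sites in Os12g0136900 (chromosome 12, position 1786885, window agTTGcg) and Os04g0308000 (chromosome 4, position 13921849, window taTTGat), named for radicle in the light and panicle, had higher values in other tissues, up to 67.7% in endosperm and 95.8% in the 8-day seedling. Of the 5 highest means among all members, chosen after the values were seen, 1 belonged to a site that passed in none of the 11 flagged tissues. This site, in Os06g0699900 (chromosome 6, position 29428575, window taTTGca), was at 71.8% to 100% in 11 tissues and at 0 in endosperm. In all, 12 members reached 100% in some tissue, and 0 of these 12 passed in 5 or more tissues.

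The fraction differed by the letter before the T pair. G stood at letter 2 in 301 sites (44.1%), C in 198, T in 125 and A in 58, against 64.9% G among all other motifs. The median of site means was 15.7% after G and 15.5% after A, 12.7% after T and 9.53% after C. A mean of at least 20% was reached by 31.2% of the sites with G (26.3% to 36.7%), by 34.5% with A (23.6% to 47.3%), by 15.2% with C (10.8% to 20.8%) and by 8.80% with T (4.98% to 15.1%). Among TTC sites the order of G and C was the other way round, with a median of 15.2% for G over 319 sites and 24.3% for C over 258. C at letter 2 was not the letter with the fewest repeated passes, since 33 of the 198 sites (16.7%, 12.1% to 22.5%) passed in 5 or more tissues, against 34 of 301 (11.3%, 8.20% to 15.4%) with G. The median over sites of the host gene level was 46.6 TPM with C and 37.0 TPM with G, and the part of the host level in the difference was not tested.

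At letter 6, C and T made up most sites, with 277 (40.6%) and 270 (39.6%), whereas G was the commonest letter there among all other motifs (43.0%). The median of site means was 15.2% before C, 13.5% before T, 11.0% before G and 10.6% before A. C at letter 6 also had the highest median among TTC sites (26.8%) and among all other motifs (15.3%). The median host gene level of the TTG sites was 36.3 TPM with C, 40.9 with T, 73.6 with G and 71.2 with A. The part of the host level in these differences was not tested. Read together, letters 2 and 6 gave 5-letter cores of unequal size: gTTGt was the largest with 150 sites and a median of 14.3%, cTTGc had 106 sites and 9.58%, and gTTGc had 104 sites and 18.4%. Of the 104 gTTGc sites, 46 had a mean of at least 20%, against 22 of the 106 cTTGc sites. The core aTTGa had 9 sites and a median of 33.1%. It holds the sites in Os11g0620100 and Os09g0464000, and 3 of its 9 sites passed in 5 or more tissues.

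A longer run of T before the G did not go with a higher fraction. The run that ends at the site was 2 T long in 557 sites (81.7%), 3 T in 111 and at least 4 T in 14, the most that the window can show. The median of site means was 13.8%, 12.8% and 11.4% in this order. A mean of at least 20% was reached by 144 of 557 sites (25.9%, 22.4% to 29.6%), 8 of 111 (7.21%, 3.70% to 13.6%) and 3 of 14 (21.4%, 7.57% to 47.6%). Among TTC sites the medians for runs of 2 and 3 T were 18.7% and 22.0%. The site in Os05g0463100, the second highest mean among sites passed in 5 or more tissues, ends a run of 3 T, as do the sites of Os03g0250000 and Os04g0218100. The T before the site was itself a listed site for 7 of the 682 members.

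TTG sites lay toward the 3′ end of their genes. Along the gene span from the 5′ end, with introns included, the 5 equal parts held 71, 86, 122, 153 and 250 sites, a share of 36.7% (33.1% to 40.3%) in the part at the 3′ end and 10.4% (8.34% to 12.9%) in the part at the 5′ end. For all other motifs these shares were 27.9% (26.9% to 28.9%) and 21.5% (20.5% to 22.4%). The distance to the end of the gene showed the gap at the 5′ side more than at the 3′ side: 11.1% of TTG sites lay within 500 bases of the 5′ end against 25.4% of all other motifs, and 35.3% lay within 500 bases of the 3′ end against 30.4%. Exons, coding parts and untranslated regions were not analysed here. In the 80 sites of genes whose exonic length equals their span, so that introns play no part, the shares from the 5′ end were 6.25%, 11.3%, 22.5%, 31.3% and 28.8%. The largest share there was in the fourth part and not in the last, as it was for the 1174 such sites of all other motifs (24.8%). The median of site means was 16.0% in the part at the 5′ end and 13.0% in the part at the 3′ end, where the counts were higher. Among the 155 sites with a mean of at least 20%, 31.6% were in the part at the 3′ end.

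**Figure D3:**
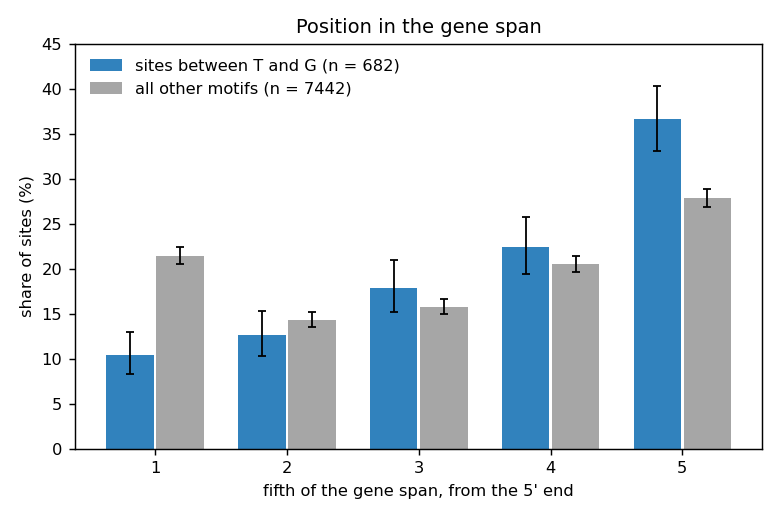
Share of sites in percent in each of 5 equal parts of the gene span, counted from the 5′ end with introns included, for the 682 TTG sites and the 7442 sites of all other motifs; error bars are 95% Wilson intervals over sites. The TTG share rises from 10.4% to 36.7%, whereas that of all other motifs is 21.5% at the 5′ end and 27.9% at the 3′ end.

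Both genes with 5 TTG sites lay on the minus strand of chromosome 6, 16302 bases apart. Os06g0647500 (26468396 to 26469595) is 1200 bases long with no intron and held 12 listed sites in all. Its members lay at positions 26468693, 26468902, 26469022, 26469037 and 26469054, with means of 25.4%, 24.7%, 10.2%, 41.7% and 20.3%. All 5 were listed at 0 in radicle in the dark, where the gene stood at 11.0 TPM, and all 5 were above 20% in embryo and endosperm, where it stood at 74.7 and 42.0 TPM. The site at 26468902 is the one named for flag leaf at 10 DAA, with 52.0% there. Os06g0648200 (26485898 to 26494001) spans 8104 bases, of which 6382 are exonic, and held 26 listed sites, the most of any host gene. Its members at positions 26488349, 26489429, 26491884 and 26493134 had means of 14.5%, 20.9%, 12.1% and 15.1%, while the fifth, at 26493446, was the one at 62.4%. Embryo was the tissue in which all 5 passed, at 56.1%, 34.2%, 52.4%, 24.3% and 76.9%, and its gene level there was 54.0 TPM against at most 11.6 TPM in the other tissues. Sites of 1 gene share their reads and their gene level and are not replicates of each other. In the 32 genes with 2 members, the means of the pair differed by a median of 6.53 points, by under 5 points in 10 genes and by 20 points or more in 2.

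The 636 host genes were well expressed, with a median level of 30.6 TPM in radicle in the dark to 51.4 TPM in panicle, and 92.8% to 97.2% of them reached 1 TPM in a tissue. The 4397 genes that held sites of other motifs and no TTG site had medians of 23.7 to 38.5 TPM. Of the 636 TTG host genes, 313 also held sites of other motifs, and these are not among the 4397. Site means were highest at intermediate host levels. With the median level over tissues under 5 TPM the median of 48 site means was 13.0%, between 5 and 20 TPM it was 18.7% over 142 sites, between 20 and 80 TPM it was 14.8% over 282 sites, and from 80 TPM it was 9.81% over 210 sites. A mean of at least 20% was found in 43.7% (35.8% to 51.9%) of the sites at 5 to 20 TPM and in 10.5% (7.02% to 15.4%) of those from 80 TPM. The share passed in 5 or more tissues ran the other way, from 2.08% under 5 TPM to 18.6% (13.9% to 24.4%) from 80 TPM. The range over tissues was also wider in weak genes, with a median of 48.3 points under 5 TPM and 12.5 points from 80 TPM. These limits of level were chosen after the values were seen.

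Within a tissue, the relation between fraction and host level depended on which sites were counted. Over all TTG sites with a value, Spearman's rho across sites lay between -0.19 in straw (668 sites) and 0.02 in radicle in the dark (656 sites). Over sites above 0 it lay between -0.44 and -0.33 in the 12 tissues, and over sites passed in the tissue between -0.79 in the 8-day seedling (89 sites) and -0.56 in flag leaf at heading (119 sites). Over all sites in 1 gene the same measures were 0.01 to 0.19, -0.38 to -0.33 and -0.62 to -0.54. The sites in a tissue share its libraries, and sites in weaker genes passed only at higher fractions: the lowest fraction among TTG sites that passed in radicle in the dark was 34.1% in genes at 5 to 20 TPM and 2.06% in genes from 80 TPM. Across tissues within a site, with 12 values each, rho between fraction and level had a median of 0.08 over 615 sites, was below -0.5 in 24 of them and above 0.5 in 72. Sites of all motifs had a median of 0.15 over 7004 sites.

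**Figure D4:**
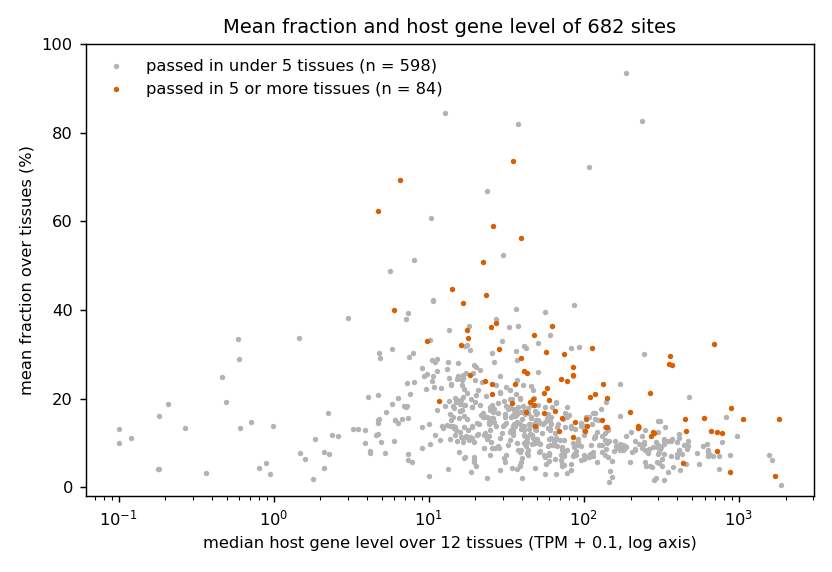
Mean Ψ fraction over tissues in percent against the median TPM of the host gene over 12 tissues (log axis, 0.1 added), with 1 point per TTG site; orange points passed in 5 or more tissues (84 sites) and grey points in fewer (598). The 5 highest means lie at levels of up to 238 TPM, and from 80 TPM 22 of 210 points are at 20% or more.

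Fractions were next set side by side in 6 chosen pairs of tissues. Between embryo and endosperm, 662 TTG sites had both values, with medians of 13.4% and 13.9%, and 34 sites were at least 20 points higher in embryo and 45 at least 20 points lower. The fractions of the 2 tissues had a rho of 0.44 across sites. Between panicle and flag leaf at heading, 36 of 657 sites were at least 20 points higher in panicle and 22 lower, with medians of 13.1% and 12.1%. Between flag leaf at 10 DAA and at heading, 22 of 658 sites were at least 20 points higher and 21 lower, with medians of 11.7% and 12.2%. Plumule in the light had 32 sites higher and 33 lower than in the dark, and radicle had 28 higher and 56 lower, of 667 and 647 sites. In the 2-week against the 8-day seedling, 28 of 670 sites were higher and 34 lower, and the median difference of -2.04 points was the farthest from 0 of these 6 pairs. Among TTG sites the shares that differed by 20 points were 5.14% higher and 6.80% lower between embryo and endosperm, against 5.25% and 6.67% of all other motifs. They were 5.48% and 3.35% between panicle and flag leaf at heading, against 5.52% and 4.75%, and 3.34% and 3.19% between the ages of flag leaf, against 4.84% and 4.48%. Between radicle in the light and in the dark they were 4.33% and 8.66%, against 4.32% and 6.68%. For plumule they were 4.80% and 4.95%, against 4.34% and 4.74%, and for the seedlings 4.18% and 5.07%, against 4.13% and 5.57%. The differences between TTG and the other motifs were not tested.

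Expression of the host genes was compared with limma on log2(TPM + 1) for some of the tissue pairs above, as named below. The fit covered all 29987 genes that reached 1 TPM in 2 or more libraries, with Benjamini-Hochberg adjustment. All 636 host genes entered. Nothing in the labels says that the 2 libraries of a tissue came from separate plants, so the p-values measure the spread between libraries only. Less RNA per cell and fewer cells of a type cannot be told apart in these bulk samples. In embryo against endosperm, 245 host genes (38.5%) were higher and 210 (33.0%) lower, against 27.6% and 26.4% of all genes tested. Each of these tissues also held markers of the other: the endosperm markers summed to 3571 and 3624 TPM in embryo, and the embryo marker stood at 23.6 and 26.9 TPM in endosperm, against 184 and 168 TPM in embryo. The green leaf markers summed to 1096 and 1056 TPM in endosperm and to 60.8 and 36.7 TPM in embryo. The part of RNA from other tissues in these counts was not tested. In panicle against flag leaf at heading, 245 (38.5%) were higher and 183 (28.8%) lower, against 37.1% and 23.0%. In flag leaf at 10 DAA against heading, 120 (18.9%) were higher and 175 (27.5%) lower, against 13.3% and 17.3%. The last 2 comparisons share the flag leaf libraries at heading. The share of panicle rises is near that of all genes. Host genes had medians of 35.5 TPM in embryo and 34.3 TPM in endosperm. The medians of all 37849 genes with an Os identifier were 2.01 and 2.07 TPM. The part of gene level in the shares called was not tested.

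In embryo against endosperm, the largest rises were in Os04g0173800, at 6568 and 6663 TPM in the embryo libraries and 5.99 and 9.45 TPM in endosperm, and in Os11g0211800, at 5883 and 6052 TPM against 13.3 and 21.0 TPM. Their log2 changes were 9.60 ± 0.27 (SE; limma adjusted p = 4.2e-13) and 8.39 ± 0.76 (limma adjusted p = 1.6e-07), and the libraries did not overlap. Their TTG sites were low in both tissues, at 8.27% and 6.38% in Os04g0173800 and at 0 and 2.47% in Os11g0211800. The largest falls were in Os01g0233000, at 1.69 and 2.11 TPM against 99.6 and 97.2 TPM (log2 change -5.10 ± 0.17, limma adjusted p = 2.2e-12), and in Os07g0216600, at 101 and 91.4 TPM against 3167 and 3355 TPM. The change of Os07g0216600, -5.07 ± 2.01 with a limma adjusted p = 0.044, was no longer called in 8 of 11 alternative fits, among them that with each plumule pair averaged (0.065) and each fit without 1 of the 4 libraries compared (0.11 to 0.13). Its adjusted p in these 8 fits lay between 0.065 and 0.13, while its log2 change lay between -4.07 and -5.14 in all 11. The limma adjusted p was 0.044 with the replicate block, 2.8e-07 with only the 2 groups in the fit and 1.7e-10 without radicle in the light replicate 1, a tissue in which the gene had a mean of 985 TPM. Its site (window gtTTGct) was at 7.32% in embryo and 14.8% in endosperm.

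In panicle against flag leaf at heading, Os09g0381400 stood at 1289 and 1322 TPM in panicle and at 0 and 5.28 TPM in flag leaf, a difference of 9.03 ± 0.54 on the log2 scale (limma adjusted p = 6.0e-10). Os04g0415900 stood at 657 and 676 TPM against 0 and 2.21 TPM (8.54 ± 0.34, limma adjusted p = 3.6e-12). The TTG sites of both genes were above 0 in panicle, at 15.1% and 22.1%, and listed at 0 in flag leaf. The largest falls were in Os11g0690332, listed at 0 in both panicle libraries and at 327 and 342 TPM in flag leaf (limma adjusted p = 4.3e-16), and in Os01g0124000, at 2.09 and 2.75 TPM against 752 and 764 TPM (-7.80 ± 0.43, limma adjusted p = 2.0e-10). The site in Os01g0124000 was at 47.2% in panicle, where the gene was near 2 TPM, and at 18.2% in flag leaf.

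In flag leaf at 10 DAA against heading, Os05g0580000 stood at 86.2 and 89.4 TPM against 4.31 and 3.99 TPM (log2 change 4.11 ± 0.58, limma adjusted p = 4.9e-05), and Os03g0191900 stood at 27.8 and 30.9 TPM against 1.10 and 0.655 TPM (4.02 ± 0.22, limma adjusted p = 1.9e-09). The sites of both were listed at 0 at heading and stood at 6.18% and 7.76% at 10 DAA. The falls were in Os12g0586100, at 9.54 and 7.57 TPM against 228 and 216 TPM (-4.55 ± 0.14, limma adjusted p = 3.9e-12), and Os02g0674233, at 20.1 and 20.0 TPM against 154 and 139 TPM (-2.81 ± 0.18, limma adjusted p = 9.0e-09). The site in Os12g0586100 ends a run of at least 4 T (window ttTTGct), and it was at 40.4% at heading and listed at 0 at 10 DAA. In these 12 host genes a listed 0 stood in the tissue with the lower level in 6 sites and in the tissue with the higher level in 1, that of Os11g0211800.

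Sites listed at 0 were unevenly spread over the called host genes as a whole. Where the host gene was higher in panicle, 56 of 256 sites were listed at 0 in flag leaf and 9 in panicle, and where it was lower, 13 of 189 were listed at 0 in flag leaf and 25 in panicle. In the genes with no call the numbers were 12 and 14 of 212. Where the host gene was higher in embryo, 29 of 271 sites were at 0 in endosperm and 14 in embryo, and where it was lower, 17 of 217 were at 0 in endosperm and 50 in embryo. The medians of the fractions in the genes higher in panicle were 13.0% in panicle and 10.0% in flag leaf. In the genes lower in panicle they were 12.6% and 13.1%. In genes higher in embryo, 116 sites passed in embryo and 20 in endosperm, in genes lower in embryo 32 and 35 did, and in the genes with no call 35 and 12 did. Embryo had more passes in all, 183 against 67, as it had among all other motifs (1464 against 883). The part of read depth in these differences was not tested.

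**Figure D5:**
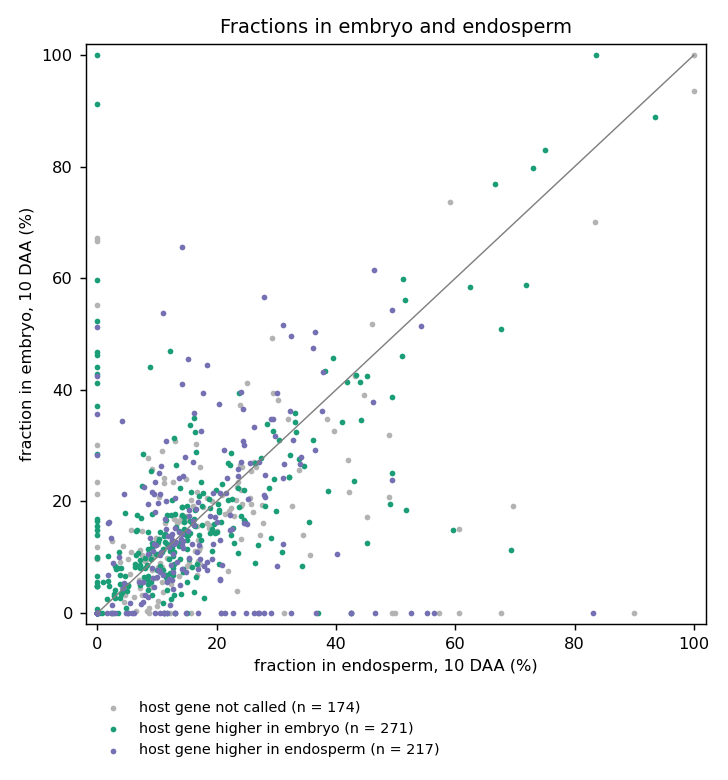
Ψ fraction in percent of 662 TTG sites in embryo (vertical) against endosperm (horizontal) at 10 DAA, with 1 point per site coloured by the limma call of its host gene; the line marks equal fractions. Of the points at 0 in embryo, 50 are from genes higher in endosperm and 14 from genes higher in embryo.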

How the data were processed

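RNA of rice tissues had been enriched for poly(A)+ transcripts and sequenced by BID-seq, with 24 input and 36 treated samples. Per the study's methods, the authors mapped reads to IRGSP-1.0 with their own pipeline, pooled the gap counts of the replicates and deposited the calibrated Ψ fraction for 12 tissues, with a pass flag for 11. The deposited TPM table held 24 libraries, made by the authors with tools not given in the sources used here. Its columns name tissue and replicate but not the treatment of the library. Of the 636 host identifiers, 0 matched the supplied symbol table, so no gene names are given.

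Sites were summarised with pandas 2.3.3, SciPy 1.17.1 and NumPy 2.4.6 in Python 3.11.15. The sum of reads behind a fraction was not used here, so its precision is unknown, and 95% Wilson intervals cover the choice of sites only. Expression was tested with limma 3.58.1 (R 4.3.3) with a variance trend on log2(TPM + 1), which understates changes of low genes, over 12 groups of 2 libraries at an adjusted p of 0.05. The steps were tested on simulated data. TPM of near-identical or overlapping genes is uncertain.

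Named sites were those passed in every flagged tissue, the 5 highest and 3 lowest means and 5 largest ranges among sites passed in 5 or more tissues, the highest site passed in each tissue alone and members of genes with 4 or more. Named host genes had the 2 largest rises and falls per comparison among called genes with a mean of at least 10 TPM and libraries that did not overlap. The members and these lists were chosen with earlier results of these data known. Limits of level, 500-base windows and 20-point differences were chosen after seeing the data, as were 2 alternatives on duplicate-like plumule libraries and on radicle in the light, and that on genes without introns.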

Additional observations from a re-analysis of the deposited data

How the results depend on the processing

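The counts of called host genes stayed within 1.5 times under each alternative: a pseudocount of 0.1, no filter on low values, quantile normalization, only the 2 groups in the fit, without radicle in the light replicate 1, and each plumule pair averaged. Leaving out 1 library of the groups compared gave 212 to 223 higher and 186 to 198 lower in embryo against endosperm, 204 to 219 and 154 to 161 in panicle against flag leaf, and 91 to 100 and 133 to 141 in flag leaf at 10 DAA against heading. With the replicate number as a block the counts were 245 and 210, 245 and 181, and 120 and 172, and the block changed no call of a named host gene. Deviations of same-numbered libraries correlated at -0.01, 0.01 and -0.01 over 29987 genes. The libraries within these tissues differed by little more than counting noise (a chi-square of 1.02 to 1.10 per gene). These correlations therefore cannot tell whether same-numbered libraries share more than a number.

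The values that moved were those of the sites. Counting only sites that passed in a tissue, the median over tissues of the share at 20% or more was 56.3%, against 26.7% over all sites, and the median rho between fraction and host level was -0.70. Over sites above 0 that median was -0.40, against -0.11 over all sites. The share in the part of the gene at the 3′ end was 31.6% for sites with a mean of at least 20% and 28.8% in genes without introns, against 36.7%. Without radicle in the light the median of the site means was 13.9%. The causes were not tested. With 1 pooled value per site and tissue, no fraction can be compared beyond its listed value.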
